A study of Homo sapiens with 34 samples.

Results

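The mRNA levels of 5 genes whose products restrain the kinase complex mTORC1 were followed over time in control and 6AN-treated cells: the sestrins SESN1, SESN2 and SESN3, DDIT4 and DEPTOR. They were chosen by name, each was found in 1 row of the deposited expression tables, and they make up 5 of 28690 loci. All 5 were among the 15339 loci called expressed here, with a mean of at least 0.5 FPKM (fragments scaled to transcript length and to library size) over all libraries. The U2OS cells used, from a human osteosarcoma line, carried the Bmal1:luc reporter, a luciferase gene under the Bmal1 promoter. Both groups were synchronized with dexamethasone, a glucocorticoid, and then cultured with 5 mM 6AN (6-aminonicotinamide, an inhibitor of the NADPH-producing enzymes of the pentose phosphate pathway) or with DMSO, the control. RNA was collected at 12 times in each condition, labelled 0 to 44 hr in steps of 4 hr, with 1 library for each time and condition (24 libraries). The hours are those of the sample titles, which do not give the delay from treatment to 0 hr. BMAL1 and CLOCK, the transcription factors of the circadian clock, were mapped by ChIP-seq with 1 library for each antibody and condition. Per the paper, this chromatin was taken after 24 hr of incubation, which may not match the 24 hr label of the RNA.

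mTORC1 sits on the lysosome and promotes protein synthesis and growth when amino acids, growth factors and energy are sufficient. Sestrins bind GATOR2, which stops GATOR2 from relieving the block that GATOR1 places on the Rag GTPases, the carriers of the amino acid signal; SESN2 is also a sensor of leucine. DDIT4, also called REDD1, acts through the TSC complex, the brake on the GTPase RHEB, and DEPTOR binds mTOR itself. Apart from DEPTOR these are known as stress-inducible genes: SESN2 and DDIT4 are targets of ATF4, SESN3 of FOXO factors, and DDIT4 also of glucocorticoids and hypoxia.

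In the tables, which use hg38, SESN2 lay at chr1:28259452-28282491, DDIT4 at chr10:72273919-72276039, SESN3 at chr11:95165513-95234404 and SESN1 at chr6:108986437-109094505. The SESN3 locus was also listed for a separate transcript, LOC100129203, at a mean of 0.602 FPKM in control and 0.215 in 6AN, and reads in their shared exons, if any, cannot be told apart without strand. The 250 bases upstream of the RefSeq start are shown for DDIT4 and SESN2, the steepest of the 5 under 6AN, from RefSeq on GRCh38.p14, 5′ to 3′. Capitals mark matches to any of 6 motifs searched on both strands: the E-box CACGTG bound by BMAL1 and CLOCK, the ATF4 composite element TGATGNAA, the antioxidant response element TGACNNNGC, the CRE TGACGTCA, the hypoxia core ACGTG, which every E-box also holds, and the CCAAT box.
DDIT4 (chr10:72273674-72273923, plus strand): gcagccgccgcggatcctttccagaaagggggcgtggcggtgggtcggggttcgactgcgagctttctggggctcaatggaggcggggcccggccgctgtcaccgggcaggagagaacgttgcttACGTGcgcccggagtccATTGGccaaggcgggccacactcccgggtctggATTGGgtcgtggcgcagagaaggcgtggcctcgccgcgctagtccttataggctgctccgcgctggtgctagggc
SESN2 (chr1:28259268-28259517, plus strand): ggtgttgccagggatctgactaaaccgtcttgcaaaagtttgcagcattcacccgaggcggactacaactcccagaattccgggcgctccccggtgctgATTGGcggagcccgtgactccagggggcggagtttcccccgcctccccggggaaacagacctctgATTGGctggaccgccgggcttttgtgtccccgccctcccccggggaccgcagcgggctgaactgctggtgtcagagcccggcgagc
Both sequences held 2 CCAAT boxes on the opposite strand, at bases -108 to -104 and -75 to -71 from the start of DDIT4 and at -151 to -147 and -86 to -82 from that of SESN2. DDIT4 also held ACGTG at -125 to -121. Neither window held any of the other motifs. Of 35116 promoters of the same length, 32% held a CCAAT box, 18.5% ACGTG, 6.34% an E-box, 10.9% the antioxidant response element, 3.14% the ATF4 element and 1.65% the CRE. Of the 3 promoters of SESN1, 1 held the antioxidant response element, and the SESN3 promoter held none of the 6.

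The 5 genes differed widely in level, and DDIT4 was by far the most abundant. In control, mean levels over the 12 time points were 71.4 ± 22.1 FPKM for DDIT4 (SD, n = 12 time points), 17.5 ± 2.36 for SESN2, 13.7 ± 1.71 for SESN3, 7.47 ± 0.924 for SESN1 and 1.29 ± 0.33 for DEPTOR. DDIT4 was higher than 91% of expressed loci in control and DEPTOR higher than 12.9%. The order was the same in 6AN, with means of 68.5 ± 20.3, 27.2 ± 6.74, 12.5 ± 1.1, 7.7 ± 1.5 and 1.08 ± 0.351 FPKM. In control the ranges of SESN2 and SESN3, neighbours in this order, overlapped, although SESN2 was the higher at 10 of 12 time points. In 6AN their ranges were apart, and the neighbours that overlapped were DDIT4 and SESN2, although DDIT4 was the higher at every time point. All other neighbours were apart in both conditions.

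**Figure D1:**
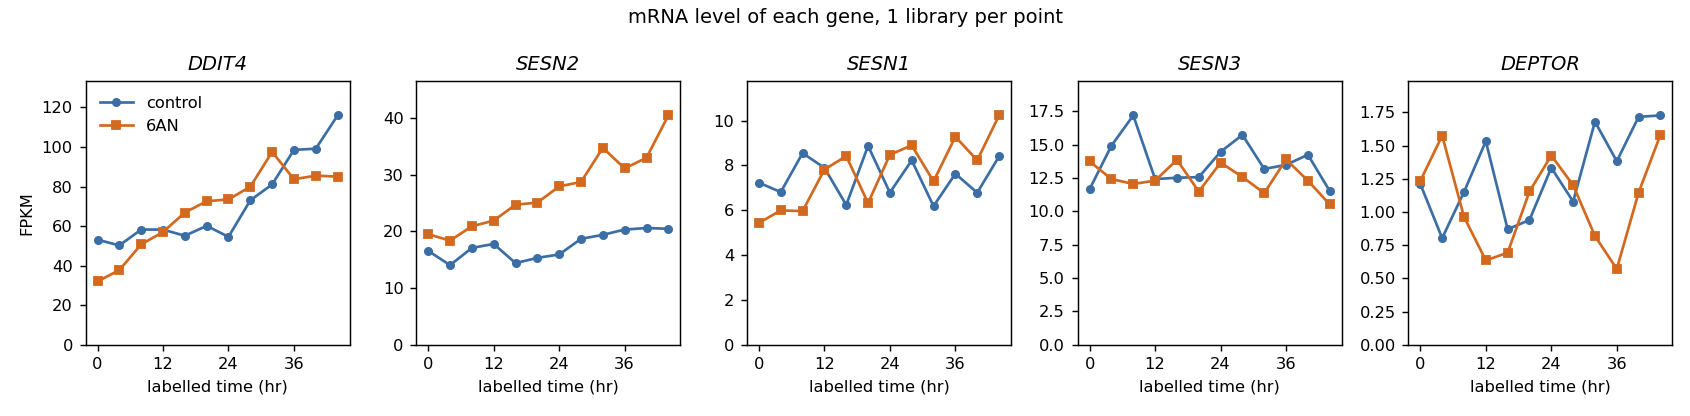
FPKM of each gene (y axis, starting at 0, scaled by gene) against labelled time in hr (x axis) in control (circles) and 6AN (squares), 1 library per point. SESN2 in 6AN lies above control at all 12 time points and reaches 40.4 FPKM, while the DDIT4 curves cross between 12 and 16 hr and again between 32 and 36 hr.

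Whether 6AN changed the level of these genes was examined first, as a description, since the control and 6AN tables were normalized separately and no test was made across them. SESN2 was the 1 gene of the 5 that was higher in 6AN at every time point. Its mean log2 ratio of FPKM + 1 was 0.58 ± 0.24 (SD over 12 time points), a 1.49-fold difference. DDIT4, SESN1, SESN3 and DEPTOR had mean log2 ratios within 0.14 of 0 with signs that changed over time. Of all expressed loci, 12.2% were higher and 19.2% lower in 6AN at all 12 time points, and the median locus had a mean log2 ratio of -0.03.

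SESN2 ranged from 14.0 to 20.6 FPKM in control, with a median of 17.4, and from 18.4 to 40.4 in 6AN, with a median of 26.5. The ranges overlapped through the 6AN libraries at 0 and 4 hr (19.5 and 18.4 FPKM), and every later 6AN library was above every control library. Over the first 24 hr the mean log2 ratio was 0.43 ± 0.22 (SD, 6 time points) and over the second 0.73 ± 0.14. The smallest ratio was 0.22 at 0 hr and the largest 0.95 at 44 hr. Of the 15339 expressed loci, 837 had a larger mean ratio than SESN2.

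DDIT4 ranged from 50.2 to 116 FPKM in control, with a median of 59.2, and from 32.02 to 97.5 in 6AN, with a median of 73.0. At 0 hr it was lower in 6AN (32.02 against 53.1 FPKM, log2 ratio -0.71). From 16 to 32 hr it was higher in 6AN, at most by 0.42 at 24 hr (73.5 against 54.6 FPKM). From 36 hr it was lower again, with 85.0 against 116 FPKM at 44 hr. The mean log2 ratio was therefore close to 0, at -0.07 ± 0.35, with 5 of 12 time points higher in 6AN.

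SESN1 ranged from 6.19 to 8.87 FPKM in control, with a median of 7.43, and from 5.44 to 10.2 in 6AN, with a median of 8.02. Its mean log2 ratio was -0.17 ± 0.32 over the first 24 hr and 0.22 ± 0.07 over the second, in which all 6 time points were higher in 6AN. SESN3 ranged from 11.5 to 17.2 FPKM in control and from 10.5 to 13.9 in 6AN, and 9 of 12 time points were lower in 6AN, with a mean log2 ratio of -0.11 ± 0.19. DEPTOR ranged from 0.803 to 1.73 FPKM in control and from 0.571 to 1.58 in 6AN, with a mean log2 ratio of -0.14 ± 0.34 and 7 time points lower.

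None of the 5 genes had 12 6AN libraries all above, or all below, the 12 control libraries, a separation shown by 5.44% of expressed loci upwards (834) and 9.57% downwards (1468). With all 24 libraries put on 1 scale by their median ratio to the mean library, these counts were 1108 and 1178, so that 48.5% in place of 36.2% of separated loci were the higher ones in 6AN. On that scale SESN2 was still higher at all 12 time points (mean log2 ratio 0.63), and DDIT4 was higher at 6 and lower at 6.

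**Figure D2:**
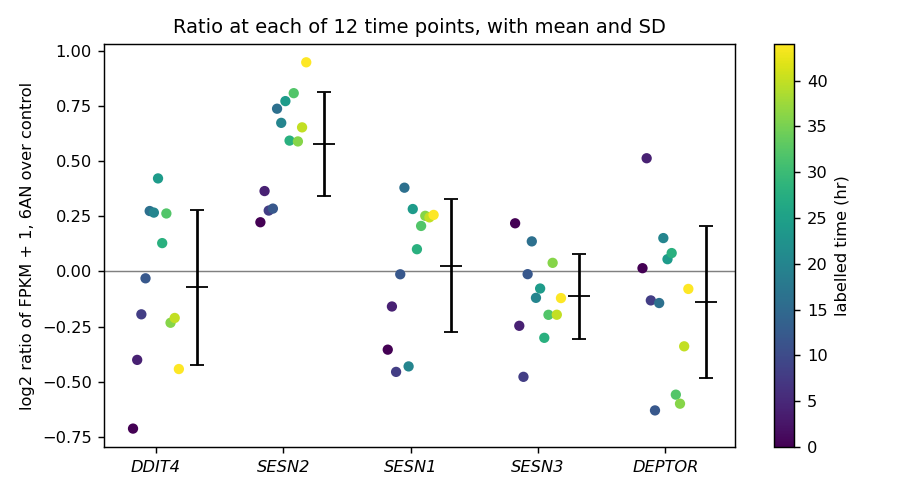
Log2 ratio of FPKM + 1 in 6AN over control (y axis) for each gene at each of 12 time points (points, coloured by labelled time in hr), with the mean and SD over time points beside them. All SESN2 points are above 0, from 0.22 to 0.95, and the DDIT4 points run from -0.71 at 0 hr up to 0.42 at 24 hr and down to -0.44 at 44 hr.

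Whether the levels moved over the time course was then tested within each table, with limma on log2(FPKM + 1) against a straight line and a 24 hr cosine, with Benjamini-Hochberg adjustment over all expressed loci. With 1 library per time point, the p-values measure the spread between time points around the fitted curve. DDIT4 rose in both conditions, SESN2 and SESN1 rose in 6AN, and no trend of SESN3 or DEPTOR passed the test. In control 1 of the 5 genes rose, where 2.29% of expressed loci rose and 2.63% fell. In 6AN 3 of the 5 rose, where 9.83% of expressed loci rose and 11.8% fell.

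DDIT4 rose in control by 0.61 ± 0.10 on the log2 scale per 24 hr (slope ± SE, 1.53-fold, adjusted p = 0.0090), from a mean of 55.8 ± 3.72 FPKM in the first 24 hr to 87.0 ± 21.9 in the second (SD, 6 time points each). The first 7 control libraries lay between 50.2 and 60.1 FPKM, and the 5 from 28 hr on between 73.0 and 116. In 6AN DDIT4 rose by 0.73 ± 0.12 per 24 hr (1.66-fold, adjusted p = 0.0028), and the climb came earlier, from 32.02 FPKM at 0 hr to 72.6 at 20 hr and to its highest level, 97.5, at 32 hr. In control, 1.81% of expressed loci had a steeper upward slope than DDIT4, and in 6AN 1.41%. When the second 24 hr were set against the first in place of a line, the adjusted p of DDIT4 was 0.0586 in control and 0.0254 in 6AN.

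SESN2 rose in 6AN by 0.56 ± 0.05 per 24 hr (1.48-fold, adjusted p = 0.00017), from 21.7 ± 2.72 to 32.6 ± 4.59 FPKM between the first and second 24 hr. In control its slope was 0.25 ± 0.07 (adjusted p = 0.066), with means of 15.9 ± 1.51 and 19.2 ± 1.78 FPKM. Without the 0 hr library the control slope was 0.33 and passed the test (adjusted p = 0.017). The 95% intervals of the slopes, 0.45 to 0.67 in 6AN and 0.10 to 0.40 in control, did not overlap, and their difference was not tested across the separately normalized tables.

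SESN1 rose in 6AN by 0.33 ± 0.09 per 24 hr (1.26-fold, adjusted p = 0.030), from 6.66 ± 1.18 to 8.74 ± 0.997 FPKM, and had a slope of 0.01 ± 0.10 in control (adjusted p = 0.996). The SESN1 call in 6AN did not hold without the library at 0 hr (adjusted p = 0.105), 4 hr (0.056), 8 hr (0.0573), 28 hr (0.0759), 36 hr (0.0566) or 44 hr (0.0893), nor when the second 24 hr were set against the first (0.0547). SESN3 had slopes of 0.03 ± 0.08 in control (95% interval -0.15 to 0.20) and -0.08 ± 0.07 in 6AN (-0.24 to 0.07). DEPTOR had slopes of 0.22 ± 0.10 in control (0.00 to 0.44, adjusted p = 0.25) and 0.08 ± 0.08 in 6AN (-0.10 to 0.26).

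**Figure D3:**
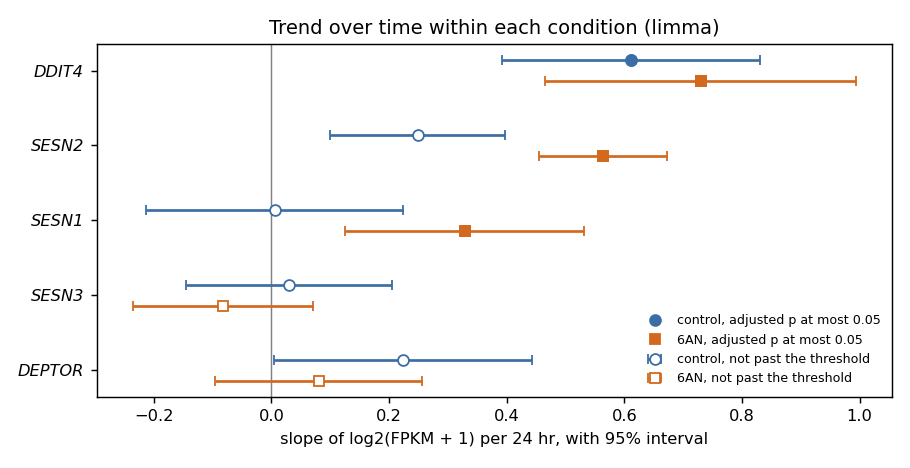
Slope of log2(FPKM + 1) per 24 hr (x axis) for each gene in control (circles) and 6AN (squares), with 95% intervals from limma. Filled symbols have an adjusted p of at most 0.05 and open symbols do not. DDIT4 is filled in both conditions, SESN2 and SESN1 in 6AN.

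No 24 hr rhythm of the 5 genes passed the test in either condition. The test passed few loci of any kind. By RAIN, another test for rhythms, the paper detected rhythmic transcripts in both conditions, clock genes among them. Its p threshold was not the adjusted p of at most 0.05 used here, so both test and threshold differ. A gene that did not pass here may therefore still be rhythmic. By limma, 0.00652% of expressed loci (1) passed in control and 0% in 6AN, and 992 and 1170 had an unadjusted p of at most 0.05. The smallest p of the 5 genes was that of DEPTOR in 6AN, with an amplitude of 0.30 on the log2 scale and a fitted peak at 0.302 hr (unadjusted p = 0.0022, adjusted p = 0.40). DEPTOR had its lowest levels in 6AN, 0.636 FPKM at 12 hr and 0.571 at 36 hr, 24 hr apart. Read totals were not in the tables, so the counting error at such levels is not known. The amplitude of DEPTOR in control was 0.05 (adjusted p = 0.99), and those of the other 4 genes lay between 0.02 and 0.15 in both conditions.

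Over the 24 libraries, with each gene centred within its table, the expressed loci most like DDIT4 were VEGFA, an angiogenic growth factor (Pearson's r = 0.94), PSAT1, an enzyme of serine synthesis (0.93), and CTH, an enzyme of cysteine synthesis (0.92). The levels of all 3, unlike that of DDIT4, were higher in 6AN on average, with mean log2 ratios of 0.92, 1.10 and 1.21. Those most like SESN2 were FKBP9 (0.93), the ribosomal protein gene RPL23 (0.93), which has many processed copies that could share its reads, and the translation initiation factor EIF4B (0.92). Those most like SESN1 were the death receptor FAS (0.78), HOXA7 (0.77) and CYFIP2 (0.77). SESN3 was most like SNTB2, MAML2 and SNX27, at 0.73 to 0.75, and DEPTOR most like C18orf25, LIPA and PODNL1, at 0.66 to 0.71. Libraries of 1 table share their normalization and their order in time, so these values describe likeness of shape and carry no p.

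Most genes of the complexes through which the 5 proteins act overlapped control in level, as did most expressed loci. In the deposited values 5.44% of expressed loci were above and 9.57% below control in all 12 6AN libraries. The list counts below are to be set against these shares. Of the 10 expressed genes of the mTOR complexes, 0 were above control in all 12 6AN libraries and 1 was below, TTI1, which helps to assemble mTOR (mean log2 ratio -0.41). The median of the list was 0.08. Of 5 genes of the TSC complex and its targets, TSC1 (0.43) and TSC2 (0.31), the core of the complex through which DDIT4 acts, were above control in every library. DDIT4L, the paralog of DDIT4, was not expressed. Of 17 genes of GATOR, KICSTOR and the amino acid sensors, where sestrins act, 0 were above and 1 was below, GATSL3 (-0.69), also called CASTOR1, the arginine sensor. This list had a median of 0.05.

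Of the Rag GTPases and their regulators, 5 of 12 genes were above control in every 6AN library and 0 were below, although the median was 0.09. They included RRAGD, a Rag GTPase (mean log2 ratio 1.03, from 5.45 ± 0.965 to 12.2 ± 2.22 FPKM, SD, 12 time points), FLCN, the activator of RRAGC and RRAGD (0.58), and its partner FNIP2 (0.53). Among AMPK and AKT genes, the kinase PDPK1 (0.24) was above, and the AMPK subunit PRKAA1 (-0.27) and AKT1 (-0.26) were below. Of 14 genes of the mTORC1 outputs, MAF1 (0.30), a repressor of RNA polymerase III, and LARP1 (0.26), a regulator of ribosomal protein mRNAs, were above, and the cap-binding protein EIF4E (-0.51) was below. On the scale common to all 24 libraries, TTI1, PRKAA1 and AKT1 no longer lay apart from control, while their ratios stayed below 0. On that scale 3 of the 14 mTORC1 outputs were above control in every library and 1 was below.

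The trend test in 6AN passed 9.83% of expressed loci as rising and 11.8% as falling. In that test 5 of 12 genes of the Rag list rose (RRAGB, RRAGD, LAMTOR1, FNIP1 and FNIP2) and 1 fell (LAMTOR4). Of the mTOR complexes 0 rose and 2 fell (MTOR and PRR5L). Of the TSC list 1 rose (RHEBL1), and of the GATOR list 2 rose (SEH1L and LARS) and 1 fell (GATSL2). Of the AMPK and AKT genes 0 rose and 3 fell (STK11, AKT1 and AKT2). Of the mTORC1 outputs 3 rose (EIF4EBP1, RPS6 and LARP1) and 4 fell (EIF4EBP2, ULK1, TFEB and MAF1).

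Factors known to induce sestrins and DDIT4 and other targets of such factors were examined next. Of 11 expressed inducing factors, 5 were above control in every 6AN library and 0 were below control in every library. They were led by DDIT3 (mean log2 ratio 1.81, from 22.7 to 83.2 FPKM). Next came ATF4, the main factor of the integrated stress response (0.93, from 510.2 to 964 FPKM), and EPAS1, a hypoxia-inducible factor (0.93). On the scale common to all 24 libraries, 7 of the 11 were above control in every 6AN library and 0 were below. In the deposited values, 7 of the 11 were higher in 6AN at all 12 time points and 1 was lower. The lower one was HIF1A, another hypoxia-inducible factor (-0.32, from 51.5 to 41.2 FPKM). All 9 expressed targets of the integrated stress response were higher in 6AN at all 12 time points, and 5 were above every control library, among them TRIB3 (2.0), DDIT3, which both lists hold, and PPP1R15A (1.30). The median of these targets was 1.20, against 0.58 for SESN2 and -0.07 for DDIT4. In the trend test 4 of the 9 rose in control (CHAC1, ASNS, PSAT1 and SLC7A11) and 5 in 6AN (DDIT3, TRIB3, ASNS, PSAT1 and SLC7A11). Among all expressed loci, 2.29% rose in control and 9.83% in 6AN.

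Of 6 expressed FOXO targets, TXNIP (2.05), BCL6 (0.69) and INSR (0.55) were above control in every 6AN library and the cell cycle inhibitor CDKN1B (-0.37) was below, the last not so on the common scale. SESN3, a FOXO target too, had a mean log2 ratio of -0.11. None of the 6 had a trend that passed in 6AN, and 3 rose in control (CCNG2, BCL6 and TXNIP), where 2.29% of expressed loci rose. Of 10 glucocorticoid targets, DUSP1 (1.38), the metallothionein MT2A (1.05), whose near-identical family members could share reads, and SGK1 (0.59) were above control in every library. At all 12 time points 5 of the 10 were higher in 6AN and 1, FKBP5, was lower (-0.27). Of 9 expressed hypoxia targets, NDRG1 (0.56) was above control in every library, and 2 of the 9 were so on the common scale. DDIT4, known as a target of both pathways, overlapped control as given above.

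**Figure D4:**
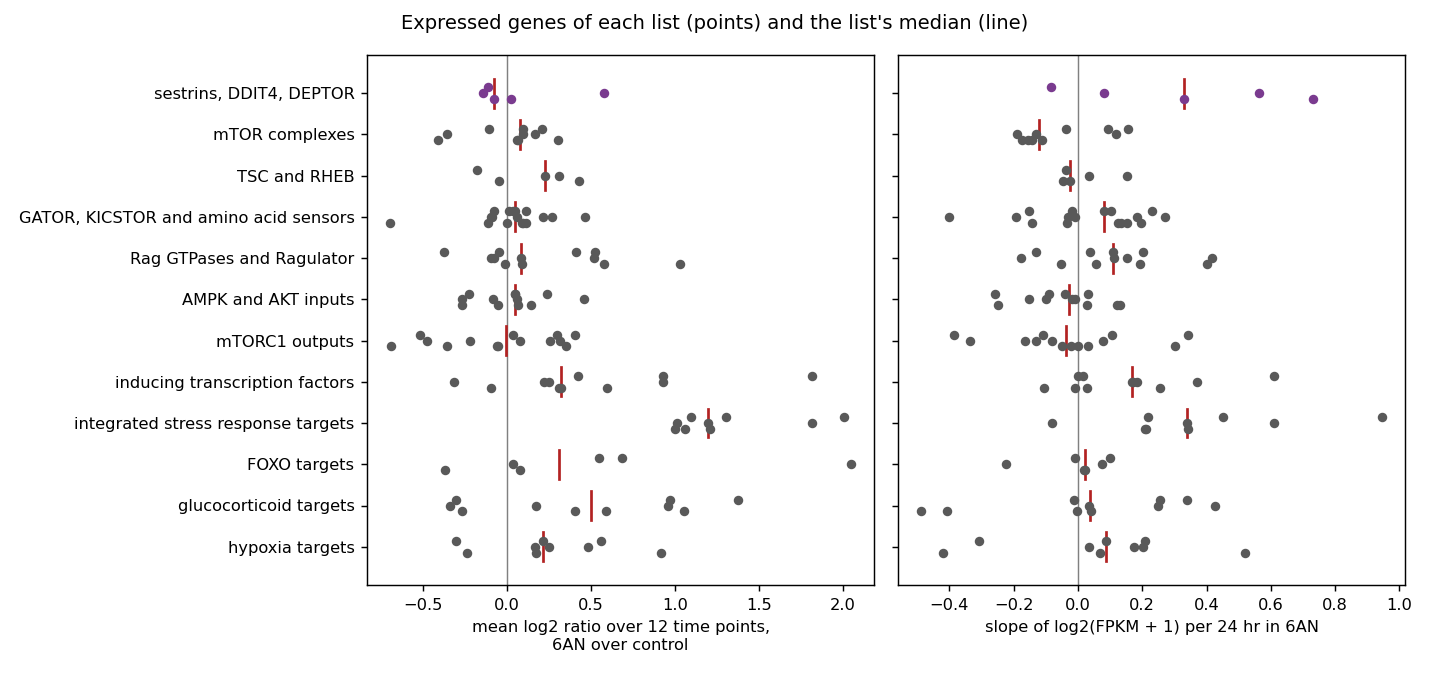
Expressed genes (points) of each pathway or target list (rows), with the list median as a line. The left panel gives the mean log2 ratio of FPKM + 1 in 6AN over control and the right panel the slope of log2(FPKM + 1) per 24 hr in 6AN. The 9 stress response targets are all to the right of 0 on the left panel (median 1.20).

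Facts of the libraries bear on these values. Sequencing depth, set against the median library of the same table and read from the smallest FPKM steps at weakly expressed loci, ran from 0.58 to 1.31 in control and from 0.694 to 1.55 in 6AN. Of 8 markers of osteosarcoma and mesenchymal cells, 6 were expressed (COL1A2 and TWIST1 were not), and their summed level was 1618 to 1891 FPKM in control and 973 to 1376 in 6AN. Of these 6, 4 were lower in 6AN at all 12 time points, and their part in the results was not tested. Of 10 markers of other cell types 8 were below 0.5 FPKM, and the other 2, EPCAM and SNAP25, summed to 3.93 to 5.90 FPKM in control and 3.12 to 5.49 in 6AN. In bulk RNA a change in the number of cells that express a gene and a change in the RNA per cell cannot be told apart.

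BMAL1 and CLOCK peaks near the 5 genes were found around DDIT4 and, once, around SESN2. The authors called peaks in each library with HOMER and merged them, so that each merged peak has 1 HOMER score and a note of the libraries that hold it. Within 50 kb of the locus DDIT4 had 3 merged peaks, SESN2 had 1, and SESN1, SESN3 and DEPTOR had 0. Among expressed loci, 45.3% had at least 1 merged peak within 50 kb, 2.19% had a peak shared by all 4 BMAL1 and CLOCK libraries, and 6.17% had 3 or more. Over the genome 6AN libraries held more peaks than control libraries. CLOCK had 1369 in 6AN and 289 in control, and BMAL1 had 2314 and 1577.

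At DDIT4 a peak of the control BMAL1 library alone (chr10:72273901-72274101, score 16.1) covered the start of the gene, with its centre 0.1 kb downstream. A peak of the 6AN CLOCK library alone lay 36.6 kb downstream of the start (score 17.6). The strongest, with a score of 53.5, was called in both antibodies and both conditions and lay 46.2 kb downstream (chr10:72319975-72320204), in an intergenic stretch that HOMER assigns to DNAJB12, the gene on the far side. Beyond 50 kb from the locus, 3 more peaks of 6AN libraries alone lay 57.7 to 61.2 kb downstream of the start, at or near DNAJB12, and 1 of control BMAL1 lay upstream at -57.5 kb, in ANAPC16. Within 100 kb DDIT4 thus had 7 merged peaks, and 0.698% of expressed loci had at least as many. The SESN2 peak, called in the 6AN CLOCK library alone (chr1:28232862-28233062, score 19.8), lay upstream at -26.6 kb from the start, in the locus of DNAJC8.

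The site shared by both factors downstream of DDIT4 was the 1 site near these genes whose signal was deposited, as tags in a window scaled to 10000000 per library. CLOCK signal was 51.5 in control and 188 in 6AN, a ratio of 3.65, and BMAL1 signal was 62.3 and 90.5, a ratio of 1.45. These rest on about 21 and 85.5 CLOCK tags and 46.5 and 71.5 BMAL1 tags. Over the 147 shared sites of control the median ratios were 1.82 for CLOCK and 1.16 for BMAL1, and 3 sites had a larger CLOCK ratio and 23 a larger BMAL1 ratio than this one. Over the 439 shared sites of 6AN the medians were 2.18 and 1.39, and 59 sites had a larger CLOCK ratio and 204 a larger BMAL1 ratio, so that its BMAL1 ratio was near the median of that list. H3K9ac, a mark of active chromatin, was 92.2 and 119 (ratio 1.29), H3K4me3, a mark of promoters, 49.95 and 56.9 (1.14), and the input 11.4 and 15.0 (1.31). The marks rest on about 13 and 56 H3K9ac tags and 16 and 26 H3K4me3 tags. Over the 147 shared sites of control the median ratios were 1.12 for H3K9ac, 0.965 for H3K4me3 and 1.49 for the input. With 1 library for each antibody and condition these differences have no replicate check, and no value here ties the site to DDIT4 rather than to its neighbours.

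**Figure D5:**
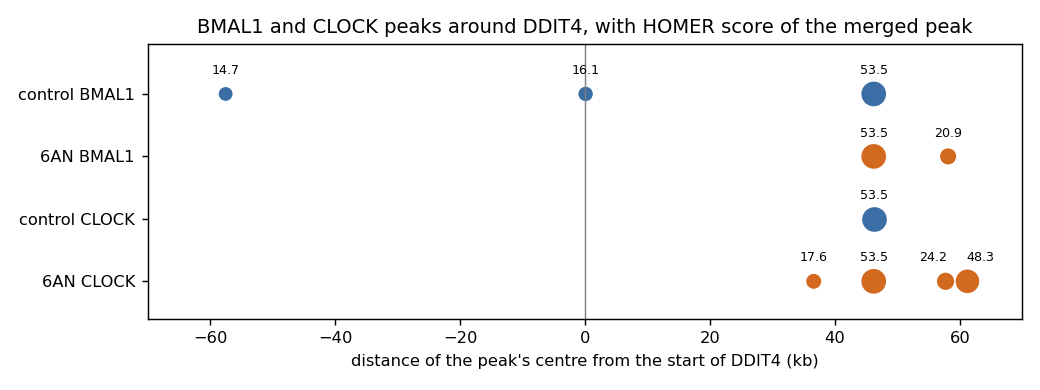
Merged BMAL1 and CLOCK peaks within 100 kb of DDIT4 by the distance of the peak's centre from the start of the gene in kb (x axis; positive is downstream) and by the library that holds them (rows). Point area and the printed number are the HOMER score of the merged peak. The peak at 46.2 kb (score 53.5) appears in all 4 rows, and the peak at the start of the gene (16.1) in control BMAL1 alone.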

How the data were processed

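The 24 RNA-seq libraries were from rRNA-depleted total RNA, beside 10 ChIP-seq libraries. Per the labels and the submitters' processing notes, the authors used TopHat, Bowtie and Cufflinks for RNA, Bowtie2 and HOMER for ChIP, and hg38, with no versions given in the sources used here. The authors deposited FPKM in separate control and 6AN tables, normalized apart from each other and with no read totals. Per the methods RNA extraction was done in triplicate, and the sources used here do not say whether extracts were pooled. The authors deposited a HOMER score for each merged peak and, at shared BMAL1/CLOCK sites, tag signal scaled to 10000000 tags per library. Of the columns with values of a sample, 0 were unused.

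R 4.3.3 with limma 3.58.1 was used for the tests, and Python 3.11.15 with pandas 2.3.3, NumPy 2.4.6 and matplotlib 3.10.9 for the rest. Loci with a mean of at least 0.5 FPKM entered tests, and a pseudocount of 1 was added before log2, which understates changes of low genes. Each table was fitted alone by limma (empirical Bayes with a mean-variance trend) against a line, a 24 hr cosine and a sine, with calls at an adjusted p of at most 0.05. RAIN, used in the study, was not run. Tested on simulated data with 15339 loci, 200 of which had slopes of 3 residual SD per 24 hr, the fit called 110 of them in the control series and 97 in the 6AN series, with 4 and 10 other loci called. The simulated noise was normal and independent between time points, and another 200 loci had a rhythm. Far fewer loci had slopes than were called in the 6AN data (3314), so these rates may differ in the real series. Alternatives covered pseudocount, filter, form of trend and rhythm, scale between tables, single time points and peak window.

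The members and gene lists were chosen with earlier results of these data known. Named genes were the 5 members; from each list the expressed genes with no overlap between 6AN and control libraries, at most 3 in each direction; and the 3 loci most correlated with each member. Genes named beside a count of 5 or fewer outside this rule, and DDIT4L, were chosen after their values were seen. Some genes of the lists, and 1 list, are not reported here. Promoters came from RefSeq (GRCh38.p14), matched by symbol.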

Additional observations from a re-analysis of the deposited data

How the results depend on the processing

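With 1 library per time and condition, the errors hold no variation between cultures, and a trend could follow any influence that changed over the time course. Of the alternatives for the 5 genes' slopes and ratios and for the counts, 282 of 319 were classed as unchanged. For slopes this meant the same direction and the same side of the threshold. Counts and ratios in this class could still shift. The 282 include the mean ratios with 1 time point left out, all 12 of them in this class for each of the 5 genes. Leaving out 1 of 12 time points moves a mean by only a small part of its SD over time points. These cases could therefore hardly have left the class, and nothing on the stability of the ratios is concluded from them. The mean log2 ratio of SESN1 was classed so although it went from 0.026 to -0.0062 when 1 time point was left out. Setting the second 24 hr against the first gave 475 loci with a trend in control in place of 756, a DDIT4 slope in control of 0.59 (adjusted p = 0.0586), a SESN1 slope in 6AN of 0.35 (adjusted p = 0.0547) and a SESN1 slope in control of -0.0432. The cause was not tested. With no straight line, 0 loci had a 24 hr rhythm in control. With a 28 hr cosine in place of the 24 hr one, 0 loci had a rhythm in 6AN. Within 10 kb, 1 of the 5 genes had a peak.

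When time points were left out singly, there were 452 to 665 loci with a trend in control and 2119 to 3286 in 6AN, against 756 and 3314, and 0 to 2 with a rhythm in control. In control the count fell by over 1.5 times without 0 hr (452), 12 hr (452), 32 hr (490) or 44 hr (466), and in 6AN without 0 hr (2119). Slopes then ranged from 0.29 to 0.38 for SESN1 in 6AN, from 0.20 to 0.33 for SESN2 in control, from -0.0524 to 0.0636 for SESN1 in control and from -0.034 to 0.0806 for SESN3 in control. The last 2 were at a slope near 0, which changed sign in 6 and 3 of 12 cases. The calls of DDIT4 in both conditions (adjusted p of at most 0.0312) and of SESN2 in 6AN (at most 0.00101) held in all 12. The time-matched ratios between the conditions were described and not tested, since the 2 tables were normalized separately.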
